A study of Mus musculus with 4 samples.

Results

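The glucocorticoid receptor gene Nr3c1 and 6 genes that glucocorticoids are known to induce (Tsc22d3, Fkbp5, Per1, Zbtb16, Sgk1 and Klf9) were followed through single cells of mouse lung. These 7 genes were found by symbol among the 32285 genes of the count matrices, and all 7 were detected. They were chosen by the level of Tsc22d3 in neutrophils, which differed with tumor, so every value of these genes in the neutrophils of tumor-bearing against normal lung is given as a description and without a test.

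The receptor waits in the cytoplasm in a complex with heat shock proteins, binds corticosterone in the mouse, and moves to the nucleus, where it binds DNA and raises or lowers the transcription of many genes. Glucocorticoids are best known in immune cells for damping inflammation, and in lung for maturation of the epithelium and for the treatment of airway inflammation. Several of the target genes also answer to other signals: Per1 belongs to the circadian clock, and Sgk1 responds to serum, osmotic stress and mineralocorticoids.

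The study compared lungs of wild-type (WT) mice with those of LAIR1KO mice, which lack the collagen-binding inhibitory receptor LAIR1, either tumor-free (normal) or carrying B16/F10 cells, a melanoma line of the mouse (tumor-bearing). Each of the 4 groups was 1 droplet library made from 3 animals marked with hashtag antibodies, so that there were 12 hashtag replicates, and library and group cannot be told apart. No treatment was given, per the labels, so the levels are those under the animals' own hormones. The animals lived in a cycle of light and dark, and the hour at which the lungs were taken was not used here.

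The libraries held 106378334 gene UMIs (unique molecular identifiers, counts of captured transcripts) in 16350 barcodes, 15793 of which passed the filters, and 8468 had a single hashtag (510 to 1050 cells per replicate). Libraries shared between 3 and 7 barcodes with each other. Lair1 had no UMI in the neutrophils of either LAIR1KO group and 1 UMI in their interstitial macrophages, against 219 and 572 UMIs in the interstitial macrophages of WT normal and WT tumor-bearing lung. Ddx3y, a Y-linked gene, was expressed in the WT normal animals and Xist in the other 3 groups. The comparisons of tumor in WT and of genotype in normal lung were therefore also comparisons between the sexes, the interaction of tumor and genotype holds the male group too, and Tsc22d3 is X-linked. Clusters were named from marker genes, so a class name such as neutrophil stands for neutrophil-like cells. In all, 7611 cells fell in 13 named classes. The 11 classes followed here hold 7579 of them, and a replicate entered a class with at least 10 cells. Levels are UMIs per 1000000 UMIs of a class in a replicate, written here as CPM.

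Sgk1, Tsc22d3, Per1 and Fkbp5 carry letters known as recognition sites close to an annotated start. For the first of these genes, the one with the full element, and for Tsc22d3 and Per1, the members highest in B cells and neutrophils, 1 stretch is printed to show what such sites look like. RefSeq promoter windows (GRCm38.p6, from 250 bases before to 50 after a start) were searched on both strands for the palindromic glucocorticoid response element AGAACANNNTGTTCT, for its single arm TGTTCT, which lies in the palindrome on both strands, and for the E-box CACGTG, the site of the CLOCK and BMAL1 proteins. In the lines below, capitals mark the match, and each stretch reads 5′ to 3′ on the strand of the gene.
Sgk1 palindromic element: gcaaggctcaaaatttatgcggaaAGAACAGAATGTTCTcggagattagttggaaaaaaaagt
Tsc22d3 single arm: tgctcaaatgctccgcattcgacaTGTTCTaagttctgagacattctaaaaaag
Per1 E-box: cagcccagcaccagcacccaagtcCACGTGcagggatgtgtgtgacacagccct

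The Sgk1 stretch lies at chr10:21993677-21993739 (plus strand), in an intron of Sgk1 in the GENCODE vM21 annotation and ahead of an internal RefSeq start, with the element at 189 to 175 bases upstream. The Tsc22d3 stretch lies at chrX:140600678-140600731 (minus strand), outside any annotated gene, with the arm 185 to 180 bases upstream. The Per1 stretch lies at chr11:69098759-69098812 (plus strand), within the annotated gene and outside its exons, with the E-box 166 to 161 bases upstream. The full palindrome was rare, in 3 of 32851 windows (0.00913%), whereas 19% of all windows held a single arm and 7.15% the E-box. Counted by gene, the shares of the arm and the E-box were 21.3% and 8.09%. The windows searched numbered 6 for Sgk1, 3 for Tsc22d3, 2 for Per1 and 1 each for Fkbp5 and Klf9. Klf9 held none of these sites, and Zbtb16 had no window and was not searched. Fkbp5 held an E-box 169 to 164 bases upstream, and the Sgk1 window with the palindrome also held one, 246 to 241 bases upstream. A match describes letters, not binding. In GENCODE vM21 on GRCm38, Tsc22d3 spans chrX:140539528-140600659, Sgk1 chr10:21882184-21999903, Per1 chr11:69095217-69109960, Klf9 chr19:23141226-23168134, Fkbp5 chr17:28399094-28517527 and Zbtb16 chr9:48654297-48836222.

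UMIs of the receptor gene were found in all 11 classes. Free RNA in the droplets was not estimated, so the lowest levels given here cannot be told apart from background. Nr3c1 had its highest mean in T cells, at 301 CPM ± 193.1 (SD, n = 6 replicates), and its lowest in dendritic cells, at 35.84 CPM ± 14.27 (n = 8). Between them stood natural killer cells (227.1), endothelial cells (219.3), neutrophils (214), fibroblasts (157.7), interstitial macrophages (153.5), monocytes (118.4), B cells (113.1), alveolar macrophages (100.8) and epithelial cells (78.96 CPM). Of the neighbours in that order, 2 pairs differed by more than the larger of their SDs: neutrophils over fibroblasts, and epithelial over dendritic cells. In neutrophils, the 12 replicates of Nr3c1 ran from 146.5 to 250 CPM with a median of 224.2, and the 4 groups overlapped.

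By class mean, no target gene was highest in T cells, where the receptor gene was. The leads of Nr3c1, Fkbp5, Klf9 and Zbtb16 over the next class were smaller than the larger SD. The heat map of class means shows a different leading class for all of the targets but Klf9 and Zbtb16, which both led in fibroblasts. These levels are descriptions over classes that share libraries.

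**Figure D1:**
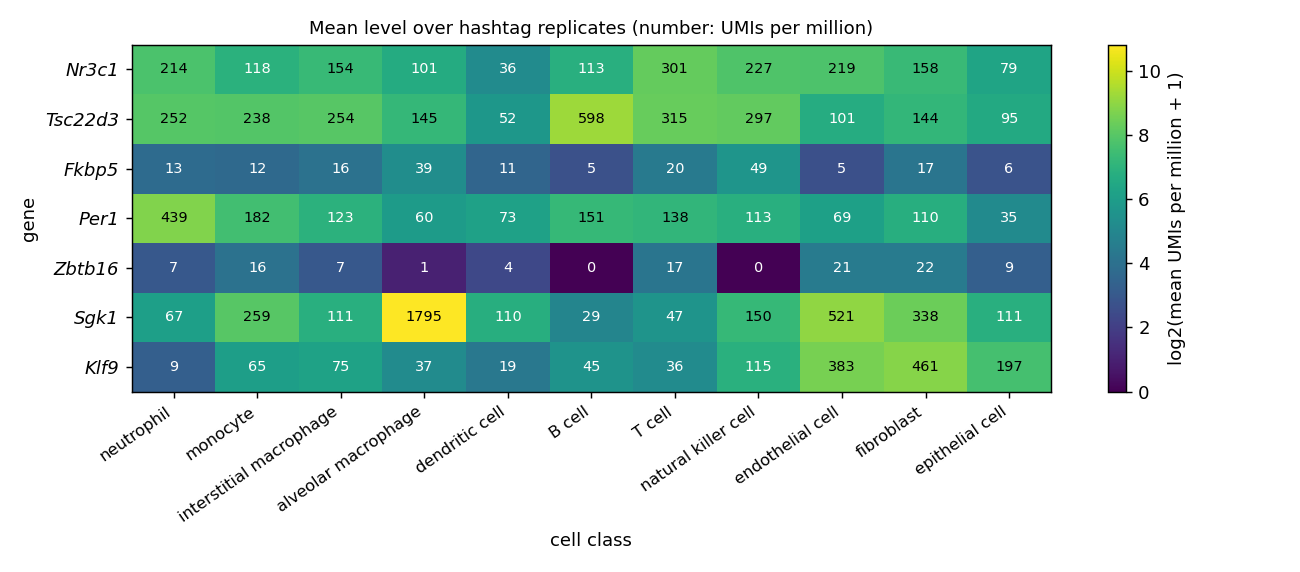
Mean level of the 7 genes (rows) in 11 cell classes (columns). Numbers are CPM averaged over hashtag replicates, and color is log2 of that mean plus 1. Sgk1 stood at 1795 in alveolar macrophages, Per1 at 439.1 in neutrophils and Tsc22d3 at 597.8 in B cells.

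Sgk1, a kinase that regulates ion channels and transporters, was highest in alveolar macrophages, the resident phagocytes of the air spaces. Its mean there was 1795 CPM ± 302.4 (n = 6). The next class, endothelial cells, had 520.9 ± 133.9 (n = 12), and the gap was 4.214 times the larger SD. Alveolar macrophages reached 10 cells only in replicates of tumor-bearing lung (2 such cells in WT normal and 8 in LAIR1KO normal lung), so a level without tumor cannot be given. In WT tumor-bearing lung the 3 replicates had 1374, 1511 and 1805 CPM, and in LAIR1KO tumor-bearing lung 1948, 2184 and 1949 CPM. All LAIR1KO values lay above all WT values, yet the difference did not pass the test over all genes (log2 0.41 ± 0.11 SE, adjusted p = 0.456, edgeR quasi-likelihood). In that comparison 0.0248% of the genes tested in alveolar macrophages were called. Below endothelial cells came fibroblasts (337.5 CPM) and monocytes (258.7 CPM), and lymphocytes ended the order with 47.08 CPM in T and 28.83 in B cells.

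Per1, a repressor of the circadian clock that glucocorticoids also induce, was highest in neutrophils, at 439.1 CPM ± 102.4 (n = 12). Monocytes followed at 182.2 ± 42.09 (n = 11), lower by 2.509 times the larger SD. From monocytes down to natural killer cells each class lay within the spread of its neighbour. Epithelial cells were lowest, at 35 CPM ± 8.647 (n = 11). All 12 neutrophil replicates, from 294.3 to 628 CPM, were above the highest monocyte replicate, at 247 CPM.

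Tsc22d3 encodes GILZ, a leucine zipper protein that carries part of the anti-inflammatory action of glucocorticoids. It was highest in B cells, at 597.8 CPM ± 193 (n = 8), and lowest in dendritic cells, at 51.91 ± 22.5 (n = 8). T cells (314.6), natural killer cells (297.1), interstitial macrophages (254), neutrophils (251.5) and monocytes (237.7 CPM) followed the B cells and did not differ from each other beyond their spread. Alveolar macrophages (145.2), fibroblasts (143.7), endothelial (101.4) and epithelial cells (95.01 CPM) were lower.

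Klf9, a zinc finger transcription factor, was a gene of the structural cells. Fibroblasts had 461.2 CPM ± 67.86 (n = 12), endothelial cells 383.1 ± 100.9 (n = 12) and epithelial cells 196.6 ± 30.56 (n = 11). Fibroblasts and endothelial cells differed by less than the larger SD. Neutrophils, where Per1 led, were lowest for Klf9 with 8.581 CPM ± 7.635 (n = 12), or 32 UMIs in 2189 cells.

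Fkbp5, a chaperone that lowers the affinity of the receptor for its hormone, and Zbtb16, a zinc finger regulator of transcription, were rare throughout. Fkbp5 stood at 38.95 CPM ± 6.599 in alveolar macrophages (n = 6, 68 UMIs). The nominally highest mean, 48.57 CPM in natural killer cells, rested on 8 UMIs. Zbtb16 stood at 21.6 CPM ± 7.191 in fibroblasts and 21.3 ± 9.337 in endothelial cells (n = 12 each). It had no UMI in 146 B cells and 72 natural killer cells, which allows a level of up to 6.41 and 14.7 CPM (3 counts of the total, for counting error only). In the filter on low counts, Fkbp5 and Zbtb16 each entered the tests in 2 classes, Klf9 in 4, Nr3c1, Per1 and Sgk1 in 9 and Tsc22d3 in 10.

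Genes whose pattern over the 11 class means was most like that of each member were ranked by Pearson's r of log2(CPM + 10), as a description, since the points share libraries and differ in depth. For Tsc22d3 they were Il16 (r = 0.917), Mef2d (0.907), Tk2 (0.888), Ccm2 (0.869) and Cd37 (0.857). Il16, a cytokine gene, had 100.2 CPM in B cells, 98 in T cells and no UMI in dendritic cells. Sgk1 was closest to Cpt1a (0.933) and Lpl (0.911). Lpl, the lipoprotein lipase of lipid-laden alveolar macrophages, had 3664 CPM ± 209.8 in that class. The 2 genes most like each other member were Tprgl (0.950) and Ube2d3 (0.929) for Nr3c1, Ago2 (0.929) and Galnt11 (0.920) for Per1, Rcn2 (0.974) and Hipk3 (0.968) for Klf9, Cd200r4 (0.888) and Lpin1 (0.816) for Fkbp5, and Slco3a1 (0.887) and Rnd1 (0.834) for Zbtb16.

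Tsc22d3 in neutrophils, the value by which the genes were chosen, was lowest in tumor-bearing LAIR1KO lung and highest in normal LAIR1KO lung. In normal LAIR1KO lung the 3 replicates had 382.3, 444.4 and 335.2 CPM (mean 387.3 ± 54.77 SD, n = 3). In tumor-bearing LAIR1KO lung they had 88.88, 193.8 and 150.8 CPM (144.5 ± 52.75, n = 3). These ranges did not overlap, and the ratio of means was 2.68-fold (log2 −1.42). In WT lung the normal replicates had 289.8, 338.5 and 146.9 CPM and the tumor-bearing ones 204.4, 256.7 and 186.1 CPM, 2 ranges that overlapped (log2 of the ratio of means −0.26). Without WT normal replicate 3, which had the lowest value of its group, that log2 ratio was −0.54, and without WT normal replicate 2 it was −0.02. The difference between the genotypes in this effect was not tested, because these values chose the genes. For reference, 0.358% of genes were called in neutrophils with tumor in LAIR1KO and 2.06% with tumor in WT.

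**Figure D2:**
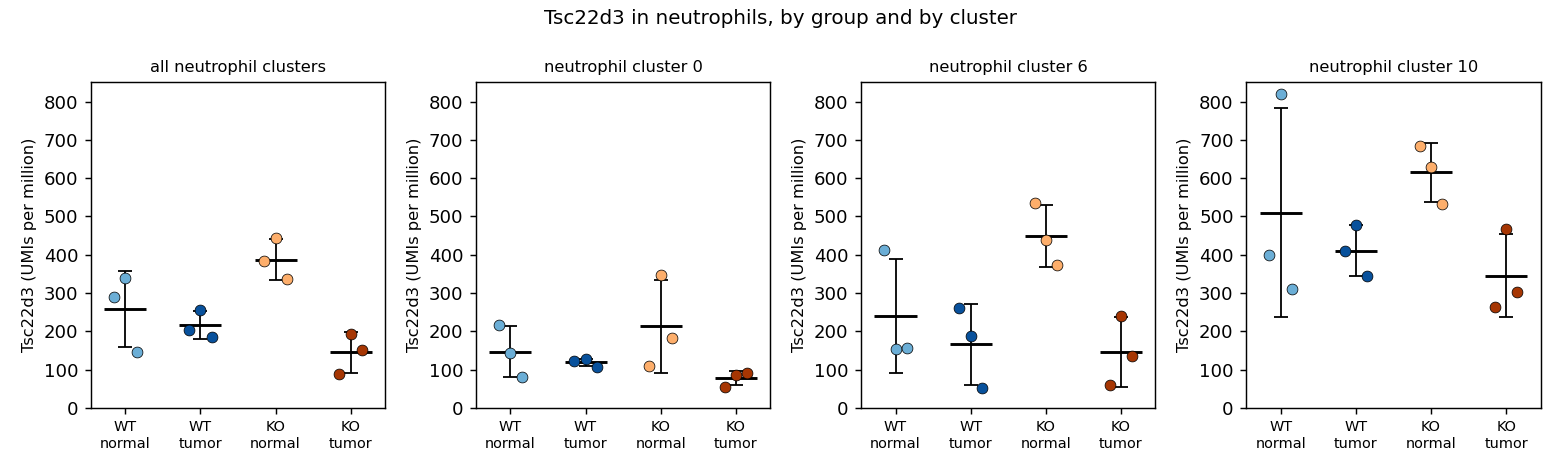
Tsc22d3 in neutrophils, in CPM, by group (KO is LAIR1KO). Points are hashtag replicates, thick lines means and bars SDs (n = 3), for all neutrophils and for clusters 0, 6 and 10. LAIR1KO tumor-bearing replicates lie below LAIR1KO normal ones in every panel, and cluster 10 has the highest levels.

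Neutrophils fell into 3 clusters that differed in Tsc22d3, although none of the 7 genes was among the variable genes used for clustering. Cluster 10, whose leading genes included Retnlg, Slfn4, Csf3r and the protease Mmp9, had group means from 345.2 to 614.9 CPM. Cluster 0, led by Il1r2, S100a9 and Adam8, had group means from 77.51 to 212.7 CPM. Cluster 6 lay between (144.7 to 448.7 CPM), and 72.8% of its barcodes before hashtag selection were hashtag doublets. In clusters 0 and 10 the median UMI count was 0.27 of that of their libraries.

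Within each cluster the LAIR1KO replicates kept the same order, as a description, since these are parts of the values that chose the genes. In cluster 0, normal LAIR1KO lung ran from 108 to 346.7 CPM and tumor-bearing from 55.56 to 91.17 CPM. In cluster 6 the ranges were 373.9 to 534 and 58.4 to 240 CPM, and in cluster 10 they were 531.5 to 683.4 and 263.9 to 468.3 CPM. Some values rested on few UMIs. The 108 CPM of cluster 0 came from 5 UMIs in 29 cells, and the tumor-bearing values of cluster 6 from 6, 8 and 5 UMIs. None of these pairs of ranges overlapped, while in WT lung the ranges of normal and tumor-bearing replicates overlapped in every cluster. The make-up of the neutrophils moved too in LAIR1KO lung: cluster 0, low in Tsc22d3, was 53.45% ± 3.414 of neutrophils in normal and 68.65% ± 3.628 in tumor-bearing lung (SD, n = 3 each). In WT lung cluster 0 was 63.28% ± 1.19 in normal and 60.73% ± 6.654 in tumor-bearing lung. Cluster 6 was 18.45% ± 4.44 and 9.388% ± 0.2063 in LAIR1KO, and 9.87% ± 2.114 and 7.044% ± 2.209 in WT lung, in the same order.

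The barcodes set aside for their hashtags were read in the same way. Neutrophils without a hashtag had 459 CPM in normal LAIR1KO lung (95% exact Poisson interval 384.5 to 543.6, 134 UMIs) and 164.5 CPM in tumor-bearing LAIR1KO lung (106.4 to 242.8, 25 UMIs). Neutrophil barcodes with more than 1 hashtag had 351.4 CPM (321 to 383.8) and 138.9 CPM (118 to 162.4). In WT lung the latter had 273 CPM (242.9 to 305.7) without and 211.6 CPM (185.3 to 240.7) with tumor. WT neutrophils without a hashtag were fewer, with 283 CPM (161.8 to 459.6, 16 UMIs) in normal lung. In WT tumor-bearing lung they had 98.72 CPM (11.96 to 356.6, 2 UMIs). The intervals cover counting error only, and these barcodes come from the same libraries and animals.

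Of the other members in neutrophils, Per1 had 377.4 to 628 CPM in normal and 294.3 to 423.1 CPM in tumor-bearing LAIR1KO lung, and 422.5 to 576.2 against 325.4 to 448.4 CPM in WT lung. The groups overlapped in both genotypes, with means lower in tumor-bearing lung each time (379.6 against 512.6 CPM in LAIR1KO, 369 against 495.2 CPM in WT). Nr3c1 was 198.3 CPM ± 49.78 in normal and 204.1 ± 34.73 in tumor-bearing LAIR1KO lung (n = 3 each). Sgk1 was 70.88 ± 9.709 and 58.96 ± 14.79 CPM in the same groups. Over the 12 neutrophil replicates, the genes most like Tsc22d3 were Notch1 (r = 0.907), Stk17b (0.884), Bicra (0.866), Rfc2 (0.862) and Med31 (0.817), as a description over replicates that share 4 libraries. Stk17b, a kinase tied to apoptosis, had 1815 CPM ± 206.8 in normal and 1119 ± 120.7 in tumor-bearing LAIR1KO lung. Such an order follows from picking genes by their likeness to Tsc22d3 over these replicates.

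Genes of cell handling and markers of cell classes were read in the same neutrophils. The sums of the handling genes overlapped between normal and tumor-bearing replicates in both genotypes. The 12 dissociation stress genes, which rise while tissue is digested, summed to 126 UMIs per 10000 in neutrophils of normal LAIR1KO lung (replicates 103 to 153) and to 96.5 (85.7 to 111) in those of tumor-bearing LAIR1KO lung. In WT neutrophils they summed to 119 (114 to 127) and 124 (111 to 137). The 10 interstitial macrophage markers were at 3.98 (2.86 to 4.73) and 5.49 (3.91 to 7.61) UMIs per 10000 in normal and tumor-bearing LAIR1KO lung. The 10 neutrophil markers were at 1310 (1100 to 1460) and 1340 (1200 to 1540) UMIs per 10000. The 4 erythroid markers were at 0.229 and 4.09, the latter through a single replicate at 11.8. Their part in the difference of Tsc22d3 was not tested.

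Between the genotypes, the same Tsc22d3 values are again given without a test. In normal lung, LAIR1KO neutrophils had 387 CPM against 258 in WT (fitted log2 0.66 ± 0.22 SE, and 0.34 without WT normal replicate 3). In tumor-bearing lung they had 144 against 216 CPM (−0.68 ± 0.28, and −0.35 without LAIR1KO tumor-bearing replicate 1). For Per1, Nr3c1 and Sgk1 the log2 differences by genotype in neutrophils lay between −0.22 and 0.03, and none passed the test (edgeR adjusted p from 0.716 to 0.999). The genes called in these comparisons were 0.568% and 0.329% of those tested in neutrophils. Fos, an immediate early gene of the dissociation list, was lower in LAIR1KO than in WT neutrophils of tumor-bearing lung, at 1420 CPM ± 192 against 2340 ± 228 (log2 −0.69 ± 0.16 SE, edgeR adjusted p = 0.0388). That call was made in 10 of 14 alternative settings, and without WT tumor-bearing replicate 2 its adjusted p was 0.258. Over the classes, Fos was the only call in 129 tests of that list in this comparison (0.775%, against 0.0573% of all tests). Outside the neutrophil tumor comparisons, the list had 0 calls in 71 tests of tumor in WT and 60 of tumor in LAIR1KO. It also had 0 in 72 tests of genotype in normal lung and 60 of the interaction.

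Outside the neutrophil tumor comparisons, and with Tsc22d3 in neutrophils left out, no member passed the test in any class. Over the classes, 30 member tests of tumor in WT, 28 of tumor in LAIR1KO, 31 of genotype in normal lung and 44 of genotype in tumor-bearing lung gave 0 calls with edgeR's quasi-likelihood test at an adjusted p of 0.05, and 0 with DESeq2. Some of these tests, and some of the interaction, had no DESeq2 adjusted p. Among them were Klf9 in endothelial cells for tumor in WT and every epithelial member for the interaction. The background of calls over all genes in the same classes was 0.331%, 0.594%, 0.969% and 0.0573%. At an unadjusted p under 0.05, 7, 3, 6 and 7 member tests passed (23.3%, 10.7%, 19.4% and 15.9%), against a background of 7.87%, 8.2%, 10% and 5.93% of all tests. The median log2 difference of the members was −0.23 for tumor in WT and −0.09 for tumor in LAIR1KO, and 0.09 and 0.14 for genotype in normal and tumor-bearing lung, with a median within 0.01 of 0 over all genes. Of the differences by tumor, 22 of 30 in WT and 19 of 28 in LAIR1KO were below 0. The interaction of tumor and genotype was called for 0 of 28 member tests (edgeR; 3 at an unadjusted p under 0.05, and 0 by DESeq2), with 0.342% of all such tests called and 8.07% at an unadjusted p under 0.05. Without the filter on low counts, 2, 2, 1 and 2 member tests and 0 of the interaction passed, against 0.705%, 0.947%, 1.33%, 0.388% and 0.746% of all tests.

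**Figure D3:**
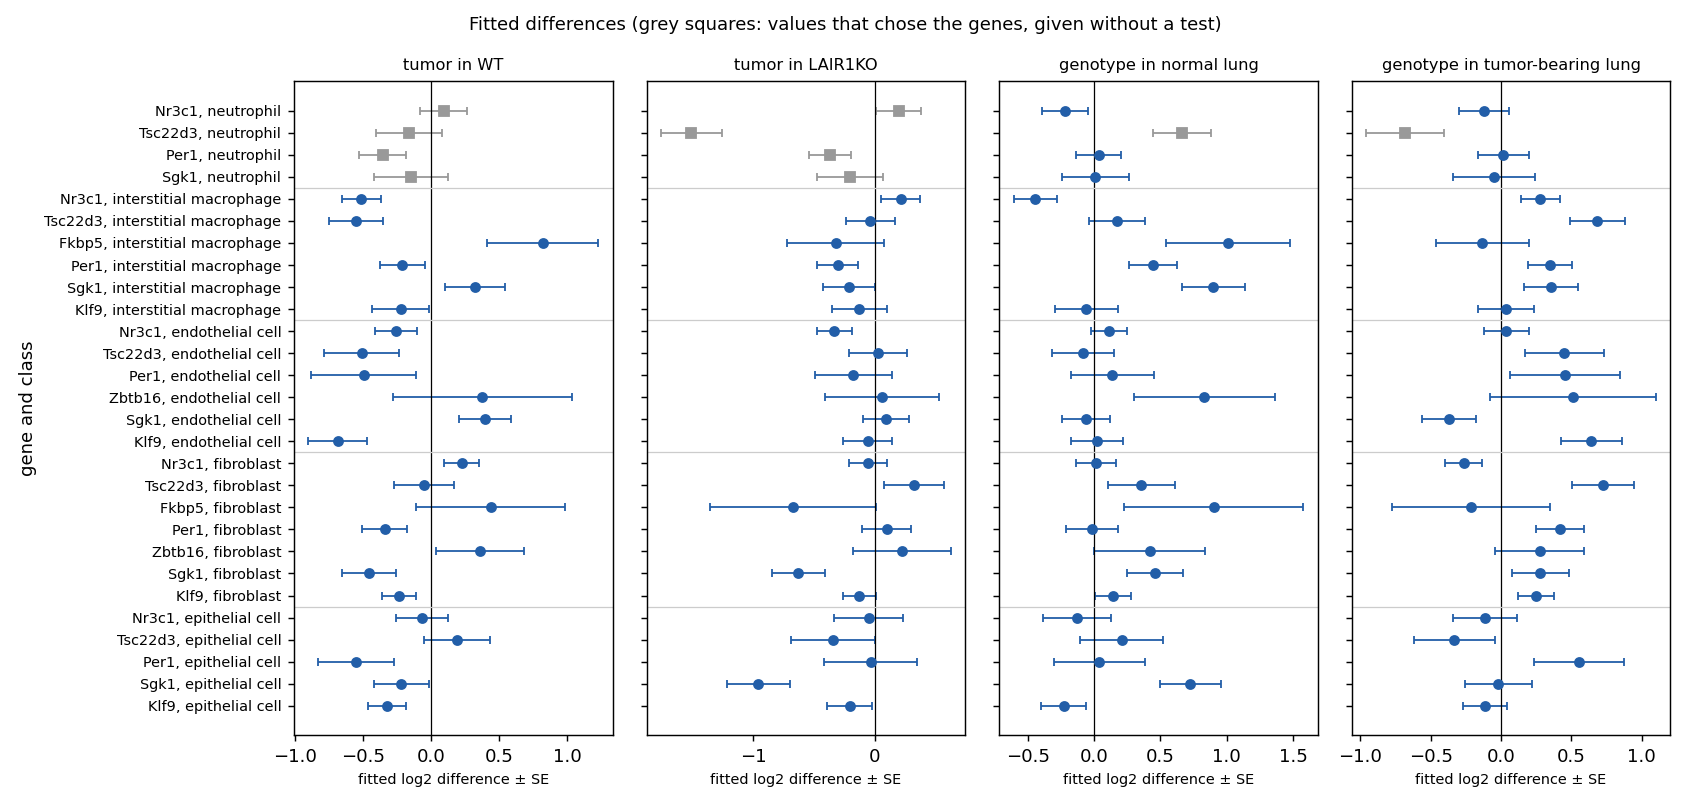
Fitted log2 differences (points) with SEs (bars) for members that passed the filter on low counts in 5 classes, 1 panel per comparison. Grey squares are the neutrophil tumor comparisons and Tsc22d3 by genotype in neutrophils, given without a test because these values chose the genes. No blue point passed an adjusted p of 0.05, and each panel has its own scale.

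Interstitial macrophages, the macrophages of the lung tissue, held the members closest to the threshold. Sgk1 was 50.58, 83.36 and 110.4 CPM in WT normal and 129.8, 166.2 and 125.5 CPM in LAIR1KO normal lung, without overlap (log2 0.90 ± 0.24 SE, edgeR adjusted p = 0.075). Without WT normal replicate 3, the highest of its group, the difference was 1.21 with an adjusted p of 0.0108, and without replicate 1, the lowest, it was 0.56 with an adjusted p of 0.334. This comparison sets female against male animals, and 1.22% of the genes tested in this class were called in it.

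The receptor gene fell short of the threshold in the same class. Nr3c1 was 193.3, 183.9 and 179.7 CPM in WT normal and 106.7, 161.6 and 125.1 CPM in WT tumor-bearing lung (log2 −0.51 ± 0.14 SE, edgeR adjusted p = 0.105, with 0.842% of genes called). Without WT tumor-bearing replicate 2 it was −0.66 (adjusted p = 0.0336), and without replicate 1 it was −0.39 (adjusted p = 0.34). In LAIR1KO lung the normal replicates had 162.2, 124.2 and 133.2 CPM and the tumor-bearing ones 161.1, 150.5 and 160.5 CPM, with overlap. The interaction was 0.72 ± 0.21 (adjusted p = 0.113, or 0.0367 without WT tumor-bearing replicate 2, with 1.16% of genes called). In normal lung Nr3c1 stood at −0.44 ± 0.16 in LAIR1KO against WT (adjusted p = 0.229), where a call appeared under another rule for hashtags (−0.78, adjusted p = 0.0193).

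Tsc22d3 in interstitial macrophages was 185.2, 208.8 and 146.6 CPM in WT tumor-bearing and 219.8, 361.2 and 291.3 CPM in LAIR1KO tumor-bearing lung. The ranges did not overlap and the genotype difference did not pass (log2 0.69 ± 0.19 SE, edgeR adjusted p = 0.327, with 0.0936% of genes called). Its sign was opposite to that in neutrophils of the same animals, where LAIR1KO tumor-bearing replicates were lower in the mean, and that contrast between classes was not tested. Per1 had 99.5 CPM ± 16.5 in WT and 128 ± 27 in LAIR1KO tumor-bearing lung (n = 3 each, log2 0.35 ± 0.16 SE, adjusted p = 0.707).

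**Figure D4:**
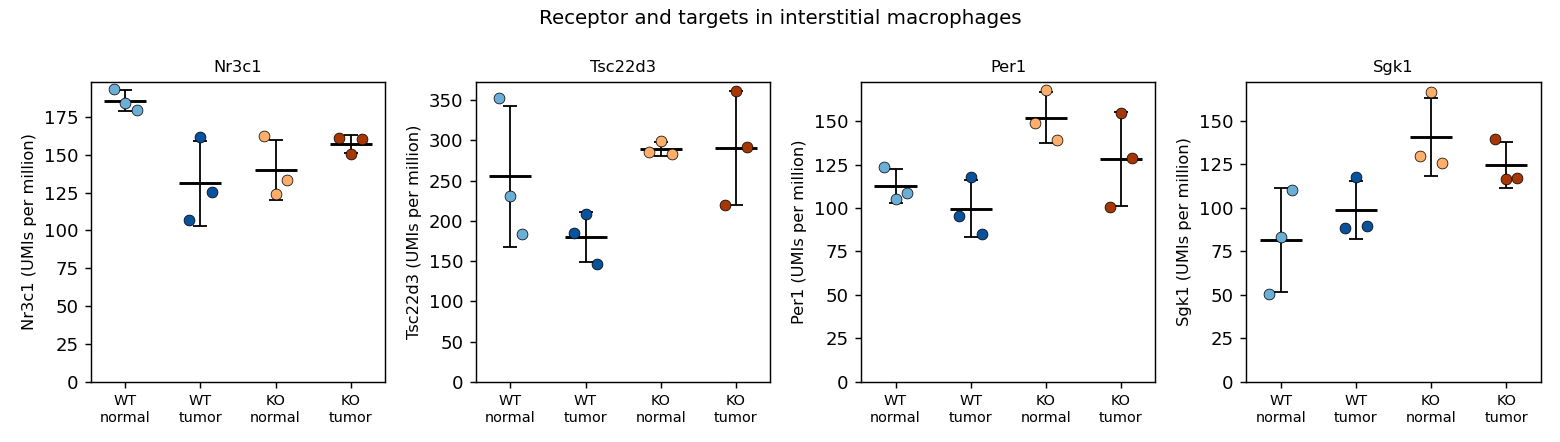
Nr3c1, Tsc22d3, Per1 and Sgk1 in interstitial macrophages, in CPM, by group. Points are hashtag replicates, thick lines means and bars SDs (n = 3). Sgk1 in LAIR1KO normal lung (125.5 to 166.2) lies above WT normal lung (50.58 to 110.4).

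In structural cells, no difference of Sgk1 or Klf9 passed the test. In epithelial cells Sgk1 was 131 and 177.4 CPM in the 2 replicates of LAIR1KO normal lung with enough cells, and 134.5, 107.4 and 67.1 CPM in LAIR1KO tumor-bearing lung (log2 −0.96 ± 0.26 SE, edgeR adjusted p = 0.122, with 0.775% of genes called). In this comparison the median gene differed by 0.19 on the log2 CPM scale, and the fitted difference is relative to that shift. Without LAIR1KO tumor-bearing replicate 1 it was −1.21 (adjusted p = 0.0481), and without LAIR1KO normal replicate 3 it was −0.60 (adjusted p = 0.639). In fibroblasts Sgk1 was 712.2, 452.6 and 299.3 CPM in LAIR1KO normal lung and 296.3, 287.4 and 281.6 CPM in LAIR1KO tumor-bearing lung (log2 −0.63 ± 0.22, adjusted p = 0.614, with 0.123% of genes called), its highest value coming from a replicate of 15 cells. In endothelial cells Klf9 was 429.5, 520.5 and 312.9 CPM in WT normal and 321.5, 290.2 and 194.4 CPM in WT tumor-bearing lung (log2 −0.68 ± 0.22, adjusted p = 0.424, with 0.087% of genes called). LAIR1KO tumor-bearing lung had 446.7, 422.8 and 373.7 CPM, above all WT tumor-bearing values (log2 0.64 ± 0.22, adjusted p = 0.999).

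**Figure D5:**
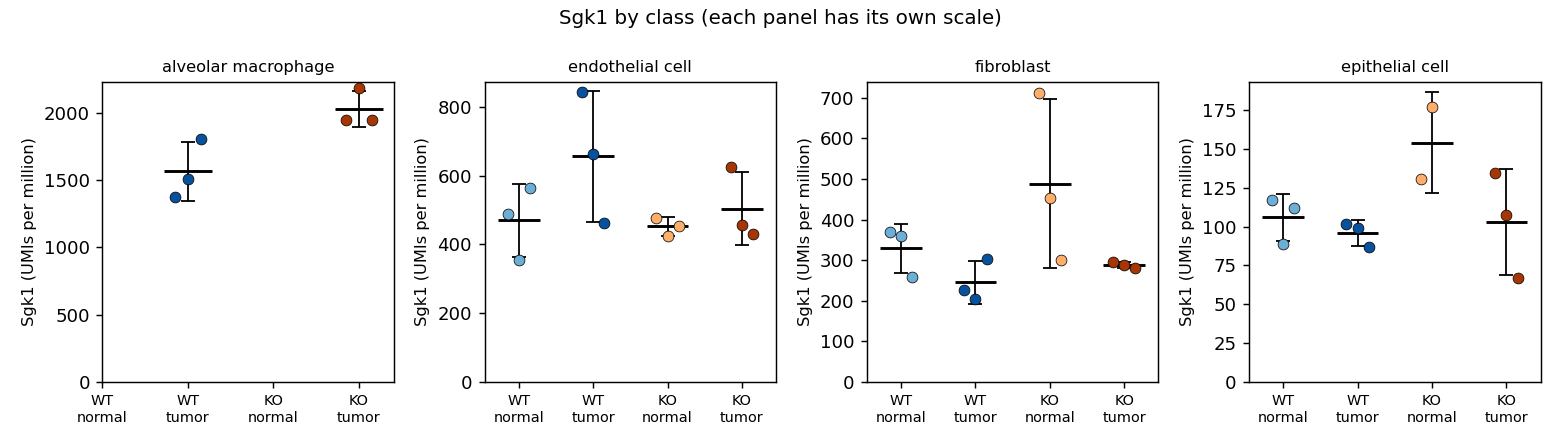
Sgk1 in CPM by group in 4 classes, each panel with its own scale. Points are hashtag replicates, thick lines means and bars SDs. Alveolar macrophages have replicates in tumor-bearing lung alone (1374 to 2184), and LAIR1KO normal lung has 2 epithelial replicates (131 and 177.4).

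Other genes of the pathway were followed by list. The 16 receptor machinery genes hold chaperones, coregulators and the enzymes that make or remove active hormone. Over all classes but the neutrophil tumor comparisons, 1 of 74 tests of these genes by genotype in normal lung was higher and 0 lower (1.35%, against 0.969% of all tests). With tumor in LAIR1KO 1 of 64 was higher and 2 lower (4.69%, against 0.594%). None of 69 tests with tumor in WT and none of 107 by genotype in tumor-bearing lung passed (against 0.331% and 0.0573%). The members that passed included Hsd11b1, the enzyme that regenerates active glucocorticoid. In endothelial cells it fell with tumor in LAIR1KO lung from 145 CPM ± 45.4 to 33.7 ± 23.8 (n = 3 each, log2 −1.82 ± 0.38 SE, edgeR adjusted p = 0.00982, with 1.74% of genes called). In WT endothelial cells its means were 61.4 CPM ± 40 in normal and 27.3 ± 8.1 in tumor-bearing lung, without a call. In epithelial cells it fell from 28 UMIs in 2 replicates of normal LAIR1KO lung to 0 UMIs in tumor-bearing LAIR1KO lung (adjusted p = 0.0406), and was 3 UMIs in WT normal lung (adjusted p = 0.0165 for genotype, with 2.05% of genes called). In WT tumor-bearing lung it was 12 UMIs, without a call for tumor in WT.

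Markers of fibroblasts moved with Hsd11b1. The 10 fibroblast markers summed in endothelial cells to 31.6 UMIs per 10000 (replicates 19.6 to 40.7) in normal and 6.43 (3.89 to 8.91) in tumor-bearing LAIR1KO lung, and in epithelial cells to 6.25 (5.06 to 7.45) and 1.54 (1.49 to 1.58). Their part in the fall of Hsd11b1 was not tested. Crispld2, a secreted protein gene of the list of other targets, fell in endothelial cells beside it (61.6 CPM ± 30.9 to 9.87 ± 8.79, log2 −2.76 ± 0.66, adjusted p = 0.0278). In WT endothelial cells Crispld2 had 37 CPM ± 19.4 in normal and 6.85 ± 6.02 in tumor-bearing lung, without a call. The interaction was called for neither Hsd11b1 nor Crispld2. Crebbp, a histone acetyltransferase that serves as coactivator, rose with tumor in epithelial cells of LAIR1KO lung (32.5 ± 8.97 to 108 CPM ± 30, log2 1.49 ± 0.33, adjusted p = 0.0391).

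Of the 24 other glucocorticoid-induced genes, 4 of 112 tests were higher and 1 lower by genotype in normal lung (4.46%, against 0.969% of all tests). With tumor, 1 of 104 was higher and 1 lower in WT (1.92%, against 0.331%), and 0 of 95 higher and 1 lower in LAIR1KO (1.05%, against 0.594%). None of 170 passed by genotype in tumor-bearing lung (edgeR), where 0.0573% of all tests did. In interstitial macrophages of normal lung, Cxcr4, a chemokine receptor, was higher in LAIR1KO than in WT (806 CPM ± 82.9 against 464 ± 29.7, log2 0.82 ± 0.12 SE, adjusted p = 0.000969). Cxcr4 also rose with tumor in WT (464 to 685 CPM, log2 0.56 ± 0.12, adjusted p = 0.0255), and its interaction was −1.15 ± 0.17 (adjusted p = 0.0011). Il1r2, the decoy receptor of interleukin 1, was higher in LAIR1KO normal lung (65.4 CPM ± 13.6 against 8.38 ± 3.21, log2 2.94 ± 0.33, adjusted p = 3.65e-05). Neutrophil markers in these macrophages were at 16 UMIs per 10000 (12.5 to 21.7) in LAIR1KO and 7.27 (5.67 to 9.1) in WT normal lung, and Il1r2 is itself a leading gene of neutrophil cluster 0. Removing cells that the doublet caller Scrublet marked ended the call of Il1r2 (log2 1.32, adjusted p = 0.382). Cebpd, a transcription factor gene, was lower there (152 against 264 CPM, log2 −0.87 ± 0.21, adjusted p = 0.0482).

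In epithelial cells of normal lung, Cebpb and Dusp1 were higher in LAIR1KO. Cebpb, a transcription factor of acute responses, had 490 CPM ± 191 (n = 2) against 231 ± 9.34 in WT (log2 1.18 ± 0.25 SE, edgeR adjusted p = 0.0144). Dusp1, a phosphatase that shuts off MAP kinases, had 893 ± 18.5 against 657 CPM ± 90.1 (log2 0.58 ± 0.15, adjusted p = 0.0435). Errfi1, an inhibitor of the EGF receptor, fell with tumor in WT epithelial cells (1400 ± 110 to 983 CPM ± 50.1, log2 −0.57 ± 0.11, adjusted p = 0.0267, with 0.246% of genes called). Of the 14 clock genes, none that entered the tests passed in any class or comparison other than the neutrophil tumor comparisons, which were left out. Not all entered: 11 passed the filter on low counts in epithelial cells, 4 in endothelial cells and 1 in monocytes. There were 36 tests of tumor in each genotype, 37 of genotype in normal lung and 42 of genotype in tumor-bearing lung. Of all tests, 0.331% were called with tumor in WT and 0.594% with tumor in LAIR1KO. By genotype, 0.969% were called in normal and 0.0573% in tumor-bearing lung.

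The list genes differed in how firmly their calls held when a setting was changed or a replicate left out, alternatives chosen after seeing the data. The genotype difference of Cxcr4 in interstitial macrophages was called in 14 of 14 settings and its interaction in 19 of 19. All counts in this paragraph include the setting without neutrophil cluster 6, which takes no cell from these classes and could not change a call. For epithelial cells, leaving out LAIR1KO normal replicate 1 could change nothing either, since its 8 cells kept it out of the fit. The rise of Cxcr4 with tumor in WT interstitial macrophages was called in 8 of 14, and Hsd11b1 in endothelial cells in 12 of 14. Crispld2 was called in 8 of 14, Cebpd in 7 of 14, Crebbp in 6 of 14 and Errfi1 in 5 of 13. In epithelial cells Hsd11b1 was called in 6 of 14 settings with tumor and in 9 of 13 by genotype, Cebpb in 9 of 13 and Dusp1 in 8 of 13. The adjusted p of Cebpb was 0.586 under the other hashtag rule, and that of Crispld2 was 0.268 without LAIR1KO tumor-bearing replicate 2. None changed sign.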

How the data were processed

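The authors deposited, per library, raw counts (UMIs) of genes and hashtag antibodies, for which the submitters' processing notes name Cell Ranger 4.0.0, STAR, R 4.0.0, Seurat 3.2.0 and the build mm10. The genes and lists were chosen with earlier results of these data known. Kept were cells with at least 300 genes and at most 10% mitochondrial UMIs. Hashtags were called with HTODemux (Seurat 5.3.0, positive quantile 0.99), and cells with 1 hashtag were used. Hashtag doublets (18.76% of filtered cells) and cells without a hashtag (27.62%) were set aside. Scrublet marked 508 cells, which stayed in except in 1 alternative. Cells were clustered with scanpy 1.11.5 (2000 variable genes, 30 components, Leiden resolution 1), without the 7 genes, and clusters were named from marker lists. UMIs were summed per class and replicate (at least 10 cells, at least 2 replicates per group) and tested with edgeR 4.0.16 (quasi-likelihood, TMM, filterByExpr, all groups in a fit, Benjamini-Hochberg over all genes of a class).

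CPM (counts per 1000000 UMIs of a class) was computed here. Tsc22d3 in neutrophils is given without a test also by genotype, since its values chose the genes. Replicates are hashtagged animals of a single library, so p-values hold the spread between animals and not between libraries. On simulated data for tumor in LAIR1KO, interstitial macrophages (7481 genes) gave back 31% of the 2-fold and 89% of the 4-fold changes, and neutrophils (3348 genes) 41% and 94%. Of the unchanged genes, 10 and 2 were called. The simulation gave every gene the same spread between replicates, which was not compared with that of the data. The shares are therefore not the power of the tests reported here. Named were the 7 genes, list genes past an adjusted p of 0.05 (at most 6 per comparison and class), and genes with the highest correlation among those with a mean of at least 20 CPM. The alternatives were DESeq2 1.42.0, no filter, only the groups compared, each replicate left out, Scrublet-marked cells removed, another hashtag rule (margin), resolution 0.5, the 7 genes kept for clustering, a mitochondrial limit of 5% and, chosen after seeing the data, neutrophil cluster 6 left out and all of these for the list genes.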

Additional observations from a re-analysis of the deposited data

How the results depend on the processing

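Without the filter on low counts, 2 members were called with tumor in WT (Klf9 in endothelial cells and Tsc22d3 in interstitial macrophages), 2 with tumor in LAIR1KO (Sgk1 in epithelial cells and fibroblasts), 1 by genotype in normal lung (Sgk1 in interstitial macrophages) and 2 by genotype in tumor-bearing lung (Tsc22d3 in fibroblasts and interstitial macrophages), against 0 with it. The background rose with it, to 0.705%, 0.947%, 1.33% and 0.388% of the tests. Under the other hashtag rule 1 member was called by genotype in normal lung and 1 in the interaction, both Nr3c1 in interstitial macrophages. Leaving out a replicate gave 0 to 1 called members for tumor in WT, tumor in LAIR1KO, genotype in normal lung and the interaction. The cause of these changes was not tested. Keeping the 7 genes for clustering could change nothing, since none was among the variable genes, and is not counted. Of 375 values of the 26 member differences at an unadjusted p under 0.05, none reversed. The 26 were picked by that p in the same data, so this count is not evidence of stability. Some of the values could not change at all. All 26 differences lie outside neutrophils, so leaving out a neutrophil cluster took no cell from their classes. Leaving out a replicate with too few cells to enter the fit could change nothing either. The level of Tsc22d3 in neutrophils of LAIR1KO lung ranged from 349.3 to 391.8 CPM without tumor and from 141.2 to 145.9 CPM with tumor over the other cell settings, and the log2 ratio from −1.69 to −1.17 with a replicate left out. No paired analysis was possible because hashtag numbers name different animals in each library. Depth limits Fkbp5 and Zbtb16 most, with few UMIs in most classes.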
